A study of Mus musculus with 6 samples.

Results

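The 10 genes described here encode a retinoid carrier (Rbp2), enzymes that convert carotene and retinoids (Bco1, Lrat, Rdh7, Retsat, Dhrs3 and Aldh1a1), a transcription factor of the intestine (Isx) and nuclear receptors (Rara and Rxra). They were chosen by symbol in a table of 25416 rows from mouse intestine, and each of the 10 was found as 1 row. Of the 6 libraries, 3 are from HET intestine with the Rnf111 substitution S254D and 3 are from WT intestine. The product of Rnf111, Arkadia, is a ubiquitin ligase known from TGF-beta signalling. The comparison asks how transcript levels in the mutant intestine differ from those of wild type. Age, sex, strain and the segment of the intestine are not given in the labels, and they do not state whether each library is another animal. The limma tests below therefore weigh differences against the variation among libraries of the same genotype, which could be technical.

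Beta-carotene is taken up at the brush border and cleaved to retinal, which is bound by an intestinal retinoid-binding protein, reduced to retinol and esterified for export in chylomicrons. A smaller part of the retinal is oxidised to retinoic acid, the ligand of nuclear receptors that act as dimers with retinoid X receptors. Retinoic acid is known to induce the homeobox factor ISX in the intestine, and in mice ISX is known to repress the genes of the carotene-cleaving enzyme and of its uptake receptor.

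Levels are FPKM, fragments normalised to transcript length and library total, so levels of different genes can be compared per length. Summed FPKM was 469968 to 510568 in the HET libraries and 493950 to 520095 in the WT libraries. Roughly 19900000 to 22800000 fragments per HET library and 20800000 to 26200000 per WT library were implied by the lowest FPKM values. The epithelial markers Vil1 and Cdx2 were present in every library, Vil1 at 703 to 883 FPKM in HET and 716 to 760 FPKM in WT. The colonic marker Car1 was listed at 0 in every library and the ileal marker Fabp6 stayed at 0.334 to 0.456 FPKM in HET and 0.178 to 0.496 FPKM in WT. Aqp8 of the colonic list, and Slc10a2 and Pyy of the distal list, were low as well. Car4 (220 to 243 FPKM in HET, 196 to 209 FPKM in WT) and Slc26a3 of the colonic list were well expressed. So were Slc51a, Slc51b (108 to 127 FPKM in HET, 93.6 to 104 FPKM in WT) and Amn of the distal list, with Cubn and Nt5e in between. The colonic and distal lists alone therefore do not settle the segment. Of the proximal list, Gata4 was at 58.2 to 63.8 FPKM in HET and 41.3 to 44.2 FPKM in WT. Lct was at 101 to 141 FPKM in HET and 156 to 170 FPKM in WT, and Fabp1, Apoa4 and Adh6a were higher still. Cybrd1 was low (0.0950 to 0.280 FPKM in HET, 0.473 to 0.850 FPKM in WT), with Slc40a1 and Onecut2 in between. Together the lists lean to proximal small intestine, without settling the segment. Across genes, log2 levels of library pairs had a Pearson r of 0.981 to 0.993 within HET and of 0.992 to 0.996 within WT. Rnf111 itself stood at 4.43, 4.83 and 4.25 FPKM across HET libraries, against 4.97, 5.29 and 5.34 FPKM across WT libraries (log2 fold change -0.17, limma adjusted p = 0.0609). A substitution changes the protein, so the transcript level does not check the labels.

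Of the 10 genes, the retinoid carrier Rbp2 and the homeobox gene Isx rose in HET, the carotene oxygenase Bco1 and the retinol esterifying enzyme Lrat fell, and the remaining 6 did not pass. A call here is a Benjamini-Hochberg adjusted p under 0.05 from limma on log2(FPKM + 1), over 11870 rows with at least 1 FPKM in at least 3 libraries. All 10 genes passed that filter, Bco1 through its WT values alone, so it had to be lower in HET to be tested. Calls were made for 46.4% of all tested rows, 10.7% higher and 35.7% lower in HET, so 4 of 10 genes is near the background share. HET and WT values did not overlap for 5 of the 10 genes, with HET higher for 2 and lower for 3, against 59.8% of all tested rows, 16% with HET higher and 43.8% with HET lower. The median log2 fold change was 0.00 over the 10 genes and -0.12 over all tested rows. Every log2 fold change given is HET minus WT after adding 1 to FPKM, which understates changes of low genes, and folds are ratios of mean FPKM.

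**Figure D1:**
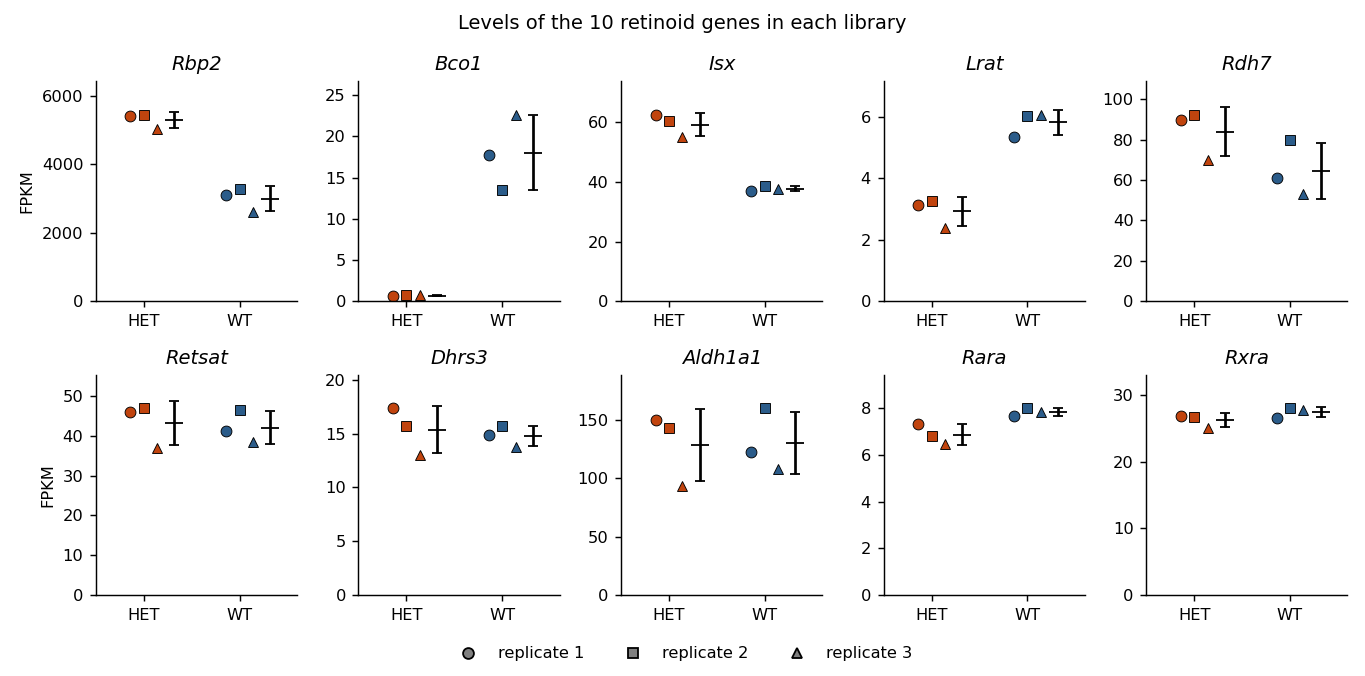
FPKM (y axis, from 0) of the 10 genes in the 3 HET libraries (orange, left) and the 3 WT libraries (blue, right). Symbols mark the replicate number and the bar gives the mean ± SD. Bco1 lies below 0.75 FPKM in each HET library and above 13 FPKM in each WT library, while Rbp2 and Isx lie higher in every HET library than in any WT library.

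Bco1 encodes the enzyme that splits beta-carotene into retinal, and its transcripts were nearly lost in HET. Bco1 (ENSMUSG00000031845) was at 0.592, 0.745 and 0.708 FPKM across HET libraries, against 17.8, 13.5 and 22.6 FPKM across WT libraries. The groups were far apart, with the highest HET value well under the lowest WT value. Mean levels were 0.681 ± 0.0800 FPKM in HET and 18.0 ± 4.55 FPKM in WT (SD, n = 3 each), which is 26.4-fold lower in HET. The log2 fold change was -3.47 (SE 0.16, 95% interval -3.86 to -3.08, limma adjusted p = 4.38e-05), outside the range from the 10th to the 90th percentile of all tested rows, -0.66 to 0.26. With the depth estimates above, the HET values stand for about 27, 40 and 33 fragments and the WT values for about 865, 791 and 1385 fragments. The low level in HET thus rests on few fragments. At these HET levels Bco1 had to be lower in HET to pass the filter. Without the filter on low values it passed too (log2 fold change -3.47, limma adjusted p = 0.000388). Bco1 held rank 10 of the 10 genes by mean FPKM in HET and rank 7 in WT.

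Isx, the gene of the intestine-specific homeobox factor, moved the other way. Isx (ENSMUSG00000031621) was at 62.6, 60.3 and 54.9 FPKM across HET libraries, against 36.9, 38.6 and 37.7 FPKM across WT libraries. Every HET library was above every WT library, and the WT libraries lay close together. Means were 59.3 ± 3.93 FPKM in HET and 37.7 ± 0.834 FPKM in WT, a 1.57-fold rise (log2 fold change 0.64, SE 0.06, 95% interval 0.48 to 0.79, limma adjusted p = 0.000484). Scarb1, the lipid and carotenoid uptake receptor that ISX is also known to repress in mice, was singled out after its values were seen. It stood at 10.2, 6.75 and 3.72 FPKM across HET libraries, against 9.22, 9.80 and 8.81 FPKM across WT libraries. The HET libraries straddled the WT libraries, and Scarb1 did not pass (log2 fold change -0.47, 95% interval -1.13 to 0.20, limma adjusted p = 0.210). Without HET replicate 1 it did (log2 fold change -0.76, adjusted p = 0.0202).

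Rbp2 encodes cellular retinol-binding protein 2, the abundant carrier of retinol and retinal in absorptive cells and the most abundant of the 10 transcripts, and it rose in HET. Rbp2 (ENSMUSG00000032454) was at 5394, 5445 and 5021 FPKM across HET libraries, against 3101, 3287 and 2606 FPKM across WT libraries. All HET libraries were above all WT libraries. Means were 5287 ± 231 FPKM in HET and 2998 ± 352 FPKM in WT, a 1.76-fold rise (log2 fold change 0.82, SE 0.12, 95% interval 0.54 to 1.11, limma adjusted p = 0.00195). Rbp2 made up 93.5% of the mean FPKM summed over the 10 genes in HET and 89.6% in WT. Rbp7, which encodes another retinol carrier of the same family, was at 20.04 ± 2.55 FPKM in HET and 19.6 ± 2.26 FPKM in WT (log2 fold change 0.03, 95% interval -0.24 to 0.31, limma adjusted p = 0.834).

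Lrat, the acyltransferase that turns retinol into retinyl esters, fell while the carrier that hands retinol to it rose. Lrat (ENSMUSG00000028003) was at 3.13, 3.27 and 2.39 FPKM across HET libraries, against 5.33, 6.03 and 6.06 FPKM across WT libraries. The groups did not overlap. Means were 2.93 ± 0.471 FPKM in HET and 5.81 ± 0.410 FPKM in WT, which is 1.98-fold lower in HET (log2 fold change -0.80, SE 0.10, 95% interval -1.04 to -0.56, limma adjusted p = 0.00109). Dgat1, which makes triglycerides and is also known to esterify retinol in the intestine, rose at a far higher level: 363, 358 and 358 FPKM in the HET libraries against 282, 302 and 275 FPKM across WT libraries (1.26-fold, log2 fold change 0.33, adjusted p = 0.00619). In a two-sided exact permutation test, Bco1, Isx, Rbp2 and Lrat each reached p = 0.1, below which no comparison of 3 with 3 libraries can go, and so did Rara and Rnf111, which did not pass with limma.

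**Figure D2:**
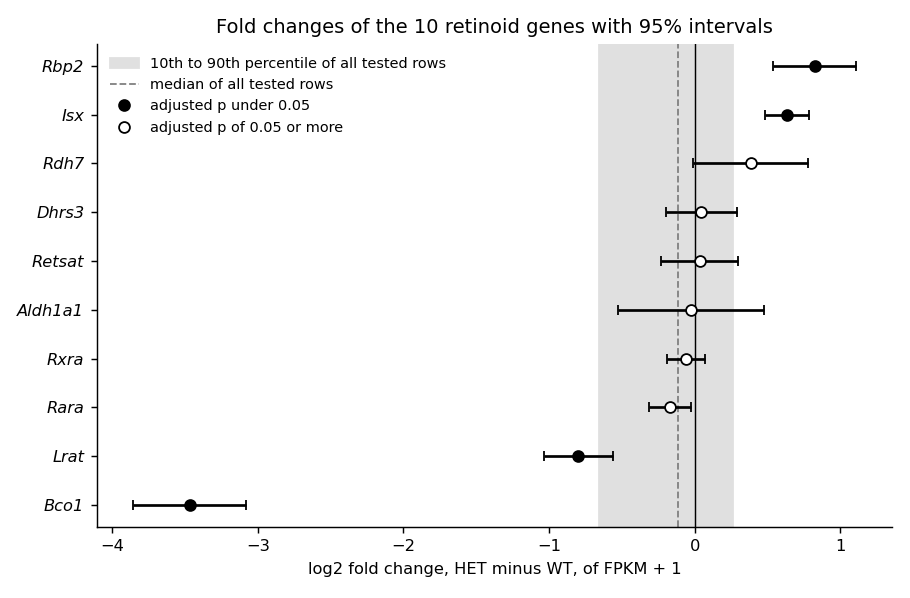
Log2 fold change of FPKM + 1 (x axis, HET minus WT) of the 10 genes with 95% intervals from limma; filled points passed at an adjusted p under 0.05. The grey band spans the 10th to the 90th percentile of all tested rows (-0.66 to 0.26) and the dashed line their median (-0.12), with the points of Bco1, Lrat, Rdh7, Isx and Rbp2 outside the band.

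The 250 bases upstream of the start are shown for the 4 genes that passed, since retinoid receptors act through repeats of a short element in promoters. They are RefSeq promoters on build GRCm38.p6, which is not the build of the FPKM values, matched by symbol, which found all 10 genes, and they are printed 5′ to 3′ on the strand of the gene. Capitals mark matches on either strand to AGGTCA, the element of many nuclear receptors including retinoid receptors, to AGGTCANAGGTCA, its direct repeat with 1 base between, to TATAAA and to TTTAT, a core read by CDX factors. A match to TATAAA also holds a match to TTTAT on the other strand.
Bco1 promoter, chr8:117095615-117095864, plus strand: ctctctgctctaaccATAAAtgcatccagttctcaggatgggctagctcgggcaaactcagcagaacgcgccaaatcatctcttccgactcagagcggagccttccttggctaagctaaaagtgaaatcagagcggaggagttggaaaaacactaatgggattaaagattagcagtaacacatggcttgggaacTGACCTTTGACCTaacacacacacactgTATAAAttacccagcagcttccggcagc
Rbp2 promoter, chr9:98490287-98490536, plus strand: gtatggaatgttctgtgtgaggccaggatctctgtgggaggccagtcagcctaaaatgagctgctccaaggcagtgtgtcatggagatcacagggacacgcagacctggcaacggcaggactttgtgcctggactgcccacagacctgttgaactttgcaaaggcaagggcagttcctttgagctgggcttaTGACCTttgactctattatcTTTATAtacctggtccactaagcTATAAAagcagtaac
Isx promoter, chr8:74872924-74873173, plus strand: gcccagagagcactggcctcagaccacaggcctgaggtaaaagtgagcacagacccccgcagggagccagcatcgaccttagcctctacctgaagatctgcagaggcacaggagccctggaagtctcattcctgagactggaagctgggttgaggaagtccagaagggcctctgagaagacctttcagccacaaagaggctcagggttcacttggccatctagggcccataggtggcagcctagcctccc
Lrat promoter, chr3:82903975-82904224, minus strand: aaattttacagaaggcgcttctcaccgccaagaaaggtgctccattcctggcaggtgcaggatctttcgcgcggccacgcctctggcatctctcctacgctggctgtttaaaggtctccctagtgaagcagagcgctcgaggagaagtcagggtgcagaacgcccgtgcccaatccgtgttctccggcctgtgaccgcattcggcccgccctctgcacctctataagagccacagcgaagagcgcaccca
The Bco1 window held the direct repeat 56 to 44 bases before the start, on the strand opposite to the gene, and TATAAA 28 to 23 bases before the start. That repeat was found in 11 of 32851 promoter windows of the same length, which is 0.0335%. The Rbp2 window held a single AGGTCA 58 to 53 bases before the start on the opposite strand, and TATAAA 15 to 10 bases before the start and, on the opposite strand, 38 to 33 bases before it. AGGTCA was in 14.0% of all windows, TATAAA in 12.4% and TTTAT in 37.3%. The Isx and Lrat windows held none of these letters, and a repeat with 5 bases between (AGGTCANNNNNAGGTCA) was in none of the windows of the 10 genes and in 0.00913% of all. Among the 10 genes AGGTCA was in the windows of 4, including Rxra and Rdh7, and TATAAA in those of 3, including Retsat. Rxra, Rdh7 and Retsat did not pass. A match describes the letters and is not evidence of binding, and Bco1 and Rbp2, which hold matches, moved in opposite directions.

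Of the enzymes that act on retinol and retinal, Rdh7, Retsat, Dhrs3 and Aldh1a1 did not pass. Rdh7, a short-chain dehydrogenase that oxidises retinol in mice, was at 89.5, 92.3 and 69.8 FPKM across HET libraries, against 60.9, 79.5 and 53.0 FPKM across WT libraries. WT replicate 2 lay above HET replicate 3, so the groups overlapped. The log2 fold change of Rdh7 was 0.38 (95% interval -0.01 to 0.78, limma adjusted p = 0.0985). It passed without HET replicate 3 (0.51, adjusted p = 0.0398) and without WT replicate 2 (0.54, adjusted p = 0.0289). Rdh7 has close relatives in the mouse genome, as does Aldh1a1 in Aldh1a7, so the split of fragments among them is uncertain.

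Retsat, which saturates retinol to dihydroretinol, was at 45.8, 46.8 and 36.9 FPKM across HET libraries, against 41.2, 46.5 and 38.4 FPKM across WT libraries. Retsat had a log2 fold change of 0.03 (95% interval -0.23 to 0.30, limma adjusted p = 0.818). Dhrs3, which reduces retinal back to retinol and is known to be induced by retinoic acid, was at 17.3, 15.7 and 13.1 FPKM in HET and at 14.9, 15.7 and 13.8 FPKM in WT. The log2 fold change of Dhrs3 was 0.05 (95% interval -0.20 to 0.29, adjusted p = 0.736). For both genes the HET values spread across the WT values.

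Aldh1a1, a retinal dehydrogenase that makes retinoic acid, was at 149.7, 143 and 93.5 FPKM across HET libraries, against 123, 159.8 and 108 FPKM across WT libraries. The groups overlapped throughout, and the interval of its log2 fold change was wide (-0.03, 95% interval -0.52 to 0.47, limma adjusted p = 0.929). The sign of Aldh1a1, like those of Retsat, Dhrs3 and Rxra, changed with the scaling, so no direction is given for any of them.

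The other enzymes of the same step, Aldh1a2 and Aldh1a3, fell. Aldh1a2, which dendritic cells and stroma of the gut are known to express, was at 1.15, 2.00 and 2.03 FPKM in HET and at 6.09, 5.78 and 6.32 FPKM in WT (3.51-fold lower, log2 fold change -1.39, limma adjusted p = 0.00043). Aldh1a3 was at 3.96, 6.51 and 5.55 FPKM in HET and at 13.6, 14.8 and 13.7 FPKM in WT (2.63-fold lower, log2 fold change -1.27, adjusted p = 0.000726). The highest HET value of each was below its lowest WT value. Aldh1a1 held a larger share of the FPKM summed over the 3 dehydrogenases, 94.5% ± 2.10 in HET and 86.4% ± 2.13 in WT, although the sum itself overlapped (101 to 155 FPKM in HET, 128 to 180 FPKM in WT). These shares within families were computed after the values had been seen and were given no test. Markers of other cells moved with Aldh1a2: fibroblast genes fell in 7 of 7 cases, with summed FPKM of 21.4 to 33.8 in HET and 125 to 144 in WT, and all 6 tested of 8 macrophage and dendritic cell genes fell, with sums of 17.2 to 23.5 FPKM in HET and 46.2 to 48.1 FPKM in WT. Of those 6, Adgre1 reached 1 FPKM in all 3 WT libraries but in HET only in replicate 3, so its place among the tested genes rested mainly on WT. Of all tested rows 35.7% fell. Their part in the fall of Aldh1a2 was not tested, and in a bulk sample fewer cells of a type and less RNA per cell cannot be told apart.

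The other carotenoid oxygenase gene, Bco2, fell as well. Bco2, the mitochondrial enzyme that cleaves carotenoids off centre, was at 31.5, 29.7 and 26.9 FPKM in HET and at 42.0, 43.0 and 39.2 FPKM in WT (1.41-fold lower, log2 fold change -0.48, limma adjusted p = 0.00232). The highest HET value was below the lowest WT value, and the log2 fold change of Bco1 was -3.47, a difference between the 2 genes that was not tested. Bco1 held 1.84%, 2.45% and 2.56% of the FPKM of the pair in the HET libraries and 29.8%, 23.9% and 36.6% in the WT libraries.

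**Figure D3:**
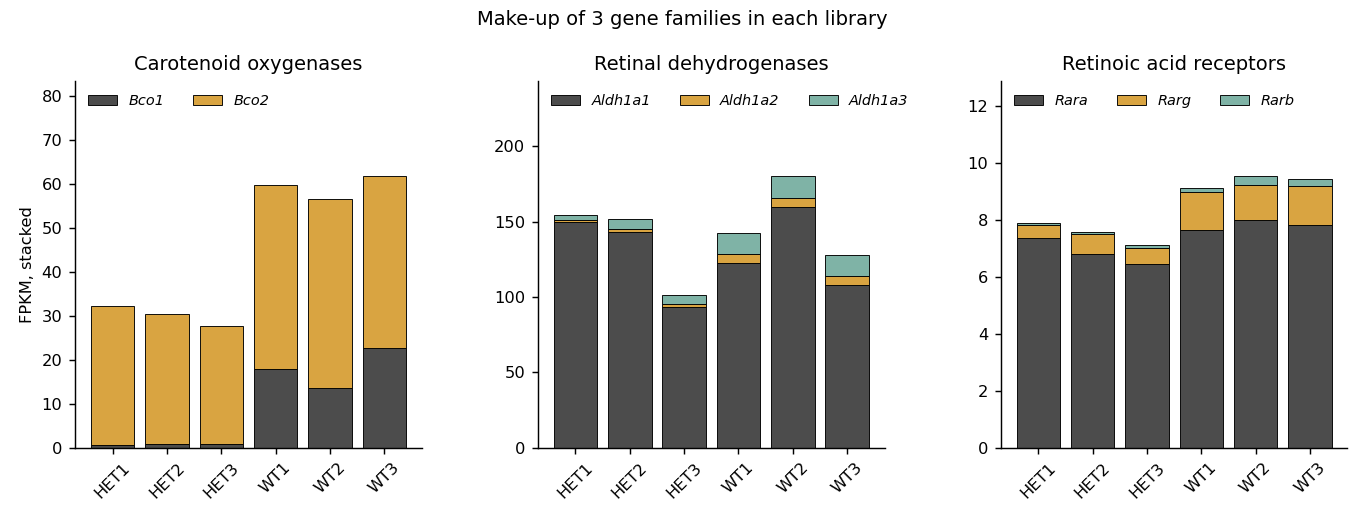
Stacked FPKM (y axis, from 0) of Bco1 and Bco2, of Aldh1a1 to Aldh1a3, and of Rara, Rarg and Rarb in each HET library (left) and WT library (right). Bco1 is 1.84% to 2.56% of its family in HET and 23.9% to 36.6% in WT, and Aldh1a1 is most of the dehydrogenase sum in every library.

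The receptors Rara and Rxra did not pass. Rara, the main retinoic acid receptor in these libraries, was at 7.34, 6.79 and 6.45 FPKM in HET and at 7.66, 7.99 and 7.83 FPKM in WT. Every HET library was below every WT library, but Rara did not pass (log2 fold change -0.17, 95% interval -0.31 to -0.02, limma adjusted p = 0.0598), and it did without HET replicate 1 (-0.21, adjusted p = 0.021). With median-ratio scaling its log2 fold change was -0.05 and with quantile normalization -0.02. Rxra, the common partner of retinoid and PPAR receptors, was at 26.9, 26.7 and 25.1 FPKM in HET and at 26.6, 28.0 and 27.7 FPKM in WT (log2 fold change -0.06, 95% interval -0.19 to 0.07, adjusted p = 0.385). The groups overlapped. Rarg, another retinoic acid receptor that passed the filter through its WT values alone, fell to 0.582 ± 0.121 FPKM in HET, against 1.30 ± 0.0655 FPKM in WT (log2 fold change -0.54, adjusted p = 0.00157), and did not pass with quantile normalization (adjusted p = 0.141). Rara made up 91.2% ± 1.84 of the FPKM of the 3 receptors in HET and 83.6% ± 0.499 in WT, and Rxra 69.3% ± 1.32 of the 3 RXR genes in HET and 69.1% ± 1.20 in WT.

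**Figure D4:**
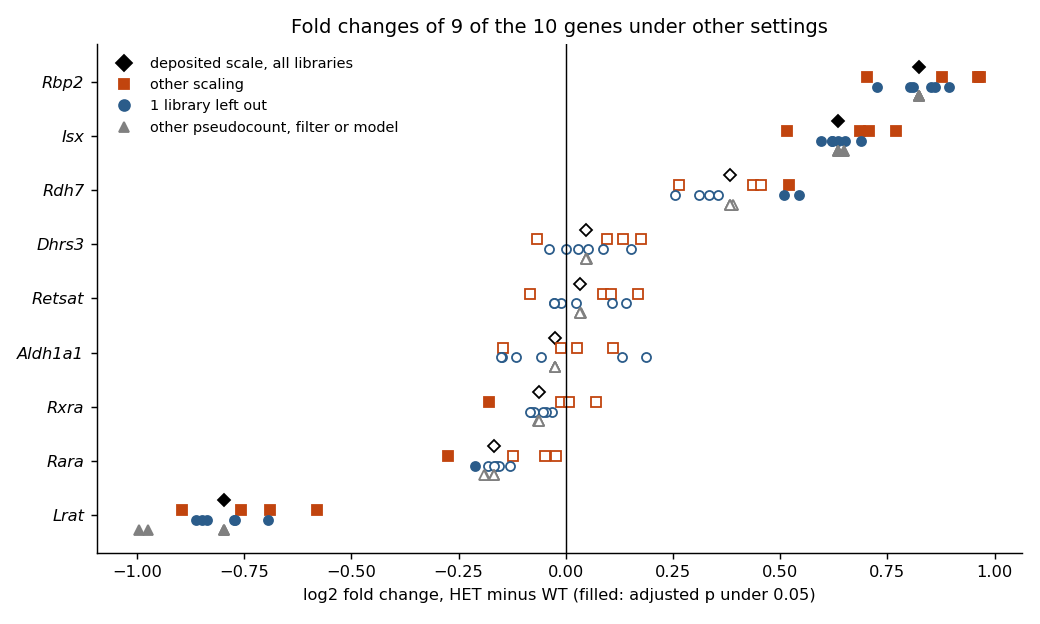
Log2 fold change (x axis, HET minus WT) of 9 of the 10 genes under each setting, filled where the adjusted p was under 0.05; Bco1, between -4.68 and -3.21 in every setting run, is off the axis. Rbp2, Isx and Lrat keep their sign and stay filled in each setting in which they were tested, while points of Dhrs3, Retsat, Aldh1a1 and Rxra lie on both sides of 0.

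Beyond these 10, 67 other genes of retinoid uptake, metabolism and response were looked up, of which 48 were tested, 6 rose, 18 fell and 24 did not pass. That is again near the 46.4% called among all tested rows, of which 10.7% rose and 35.7% fell as shares of all tested rows. The median log2 fold change of the wider genes was -0.20. The split moved with the scaling, to 9 higher and 13 lower with median-ratio scaling and to 9 higher and 11 lower with quantile normalization. Among 14 tested of 19 genes of uptake, carriage and esters, 3 rose and 4 fell, to be read against the same 10.7% and 35.7%. Among those that fell were Bco2, Stra6l, which encodes a receptor for retinol-binding protein (1.20 ± 0.237 FPKM in HET and 1.86 ± 0.0565 FPKM in WT, limma adjusted p = 0.0106), and Lrp1, a receptor of chylomicron remnants (7.14 ± 0.431 FPKM in HET and 8.93 ± 0.459 FPKM in WT, adjusted p = 0.0114). The calls of Stra6l under quantile normalization (adjusted p = 0.585) and of Lrp1 under median-ratio scaling (adjusted p = 0.0679) and quantile normalization (adjusted p = 0.0863) were lost. Dgat1, the carboxylesterase Ces1f (136 ± 43.0 FPKM in HET and 68.5 ± 21.2 FPKM in WT, adjusted p = 0.0346) and Ttr, the plasma partner of retinol-binding protein (1.59 ± 0.295 FPKM in HET and 1.07 ± 0.185 FPKM in WT, adjusted p = 0.0425), rose. The highest WT library of Ces1f (90.8 FPKM) lay above its lowest HET library (87.0 FPKM). Ces1f did not pass with HET replicate 1, HET replicate 2, WT replicate 1 or WT replicate 3 left out (adjusted p = 0.0804, 0.101, 0.0907 and 0.108), nor did Ttr with any of HET replicates 1 and 2 or the 3 WT replicates left out (adjusted p = 0.0537 to 0.132).

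Cd36, a fatty acid and carotenoid receptor, and Pnliprp2, a lipase, did not pass. Cd36 was at 20.4, 38.7 and 36.5 FPKM in HET and at 31.7, 30.8 and 34.7 FPKM in WT, and without HET replicate 1 its log2 fold change was 0.21 (limma adjusted p = 0.0408). Pnliprp2 was at 19.99, 26.6 and 30.2 FPKM in HET and at 45.7, 19.9 and 68.9 FPKM in WT, and without WT replicate 2 its log2 fold change was -1.12 (adjusted p = 0.013). Each of these results thus turned on 1 library.

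Among 18 tested of 24 genes that oxidise or reduce retinol and retinal, 3 rose, 3 fell and 12 did not pass, where 10.7% of all tested rows rose and 35.7% fell. Adh1, the class I alcohol dehydrogenase that can oxidise retinol, was at 747, 649.6 and 414 FPKM in HET and at 260.5, 345 and 207 FPKM in WT (2.23-fold, log2 fold change 1.14, limma adjusted p = 0.011). The aldo-keto reductases Akr1b7 (182, 186 and 136 FPKM in HET, 82.4, 86.2 and 82.0 FPKM in WT, adjusted p = 0.000968) and Akr1b8 (19.2, 10.9 and 7.86 FPKM in HET, 3.68, 3.15 and 3.82 FPKM in WT, adjusted p = 0.00457) also rose. Besides Aldh1a2 and Aldh1a3, Rdh5, a retinol dehydrogenase best known from the eye, fell (3.04 ± 0.5004 FPKM in HET and 4.65 ± 0.795 FPKM in WT, adjusted p = 0.0202). Rdh5 did not pass without HET replicate 2 (adjusted p = 0.066), without WT replicate 1 (adjusted p = 0.0643) or without WT replicate 2 (adjusted p = 0.0584). Nor did it pass with median-ratio scaling (log2 fold change -0.37, adjusted p = 0.0559) or quantile normalization (-0.26, adjusted p = 0.178). Of the abundant reductases and dehydrogenases that did not pass, Dhrs4 was at 69.5 ± 13.1 FPKM in HET and 60.4 ± 4.52 FPKM in WT, Adh5 at 41.5 ± 10.2 FPKM in HET and 36.6 ± 0.872 FPKM in WT, and Rdh9 at 31.1 ± 6.92 FPKM in HET and 25.1 ± 2.13 FPKM in WT. Dhrs4 and Adh5 passed without HET replicate 3 (log2 fold changes 0.35 and 0.33, adjusted p = 0.0144 and 0.0329), and Rdh9 without HET replicate 1 (0.47, adjusted p = 0.00427).

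**Figure D5:**
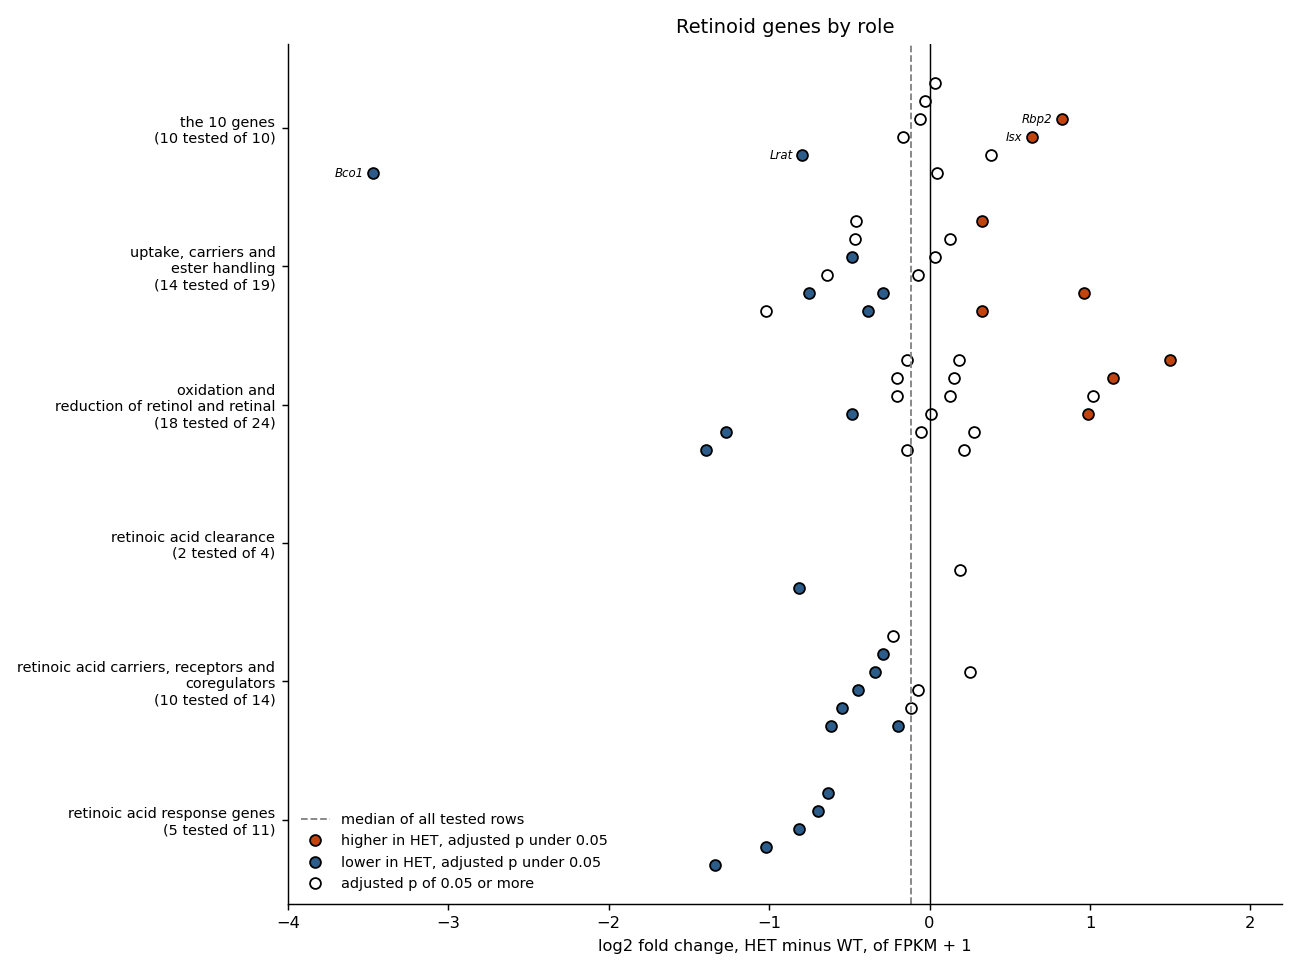
Log2 fold change of FPKM + 1 (x axis, HET minus WT) of every tested retinoid gene, in rows by role; orange points were higher and blue points lower in HET at an adjusted p under 0.05, and open points did not pass. Names stand beside the called points of the 10 genes. All 5 tested genes of the response list, which leaves out Isx and Dhrs3, lie left of 0. The enzymes of retinol and retinal have 3 called genes on each side.

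Of a list of 11 genes that retinoic acid is known to induce, 5 could be tested and all 5 of these fell. Of these, 2 were tested through their WT values alone, and 35.7% of all tested rows fell. Isx and Dhrs3, named above as induced by retinoic acid, are not on that list. Isx rose (log2 fold change 0.64, limma adjusted p = 0.000484) and Dhrs3 did not pass (0.05, adjusted p = 0.736). Cyp26b1, which clears retinoic acid, was at 0.292, 0.483 and 0.319 FPKM in HET and at 1.26, 1.44 and 1.47 FPKM in WT (limma adjusted p = 0.000437), and it passed the filter through WT alone, as did Itga4, an integrin of gut-homing lymphocytes (0.559 ± 0.0812 FPKM in HET and 2.15 ± 0.158 FPKM in WT, adjusted p = 0.00016). Both had to be lower in HET to be tested at those levels. Rarres2, which encodes chemerin, was at 9.04 ± 2.14 FPKM in HET and 24.0 ± 1.20 FPKM in WT (adjusted p = 0.000772), and the transglutaminase Tgm2 at 33.8 ± 3.08 FPKM in HET and 52.9 ± 3.59 FPKM in WT (adjusted p = 0.00126). Ccr9, a homing receptor of gut T cells that falls outside the naming rule, completed the 5 (1.67 ± 0.442 FPKM in HET and 3.29 ± 0.207 FPKM in WT, adjusted p = 0.00358). The T cell list fell with Itga4 and Ccr9, in 6 of 7 genes, with sums of 29.1 to 36.3 FPKM in HET and 58.7 to 66.3 FPKM in WT, and the fibroblast list given above also fell. Their part was not tested. Cyp26a1 stayed between 0 and 0.0927 FPKM in all libraries, and Cyp2s1, another P450 placed with the clearance genes, was at 24.7 ± 2.58 FPKM in HET and 21.5 ± 1.29 FPKM in WT (adjusted p = 0.115). Cyp2s1 passed without HET replicate 3 (log2 fold change 0.26, adjusted p = 0.0372) and after each rescaling to a common sum, median ratio or quantiles.

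Of 10 tested carriers, receptors and coregulators besides Rara and Rxra, 6 fell and 0 rose, where 35.7% of all tested rows fell and 10.7% rose. Rarg, described above, is among the 6 and had to be lower in HET, since it passed the filter through WT alone. Ppard, a fatty acid receptor that pairs with RXR, was at 28.0, 24.4 and 24.8 FPKM in HET and at 40.3, 37.8 and 41.7 FPKM in WT (1.55-fold lower, limma adjusted p = 0.000829). The corepressor Ncor1 (18.1 ± 1.68 FPKM in HET and 24.9 ± 0.682 FPKM in WT, adjusted p = 0.00333) and the coactivator Ncoa2 (5.19 ± 0.411 FPKM in HET and 6.54 ± 0.126 FPKM in WT, adjusted p = 0.011) fell too. The call of Ncoa2 was lost with median-ratio scaling (adjusted p = 0.0557) and quantile normalization (adjusted p = 0.158). Rxrb did not pass, at 11.6 ± 1.06 FPKM in HET and 12.2 ± 0.347 FPKM in WT (log2 fold change -0.07, 95% interval -0.24 to 0.10, adjusted p = 0.458).

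Epithelial content and position along the gut were compared beside the rises and falls. Among 14 enterocyte genes 5 rose and 0 fell, where 10.7% of all tested rows rose and 35.7% fell, with summed FPKM of 18331 to 21685 in HET and 14754 to 15642 in WT, and among 9 genes of the whole epithelium 2 rose, Cdx1 and Cdx2. When each library was scaled to those 9 epithelial genes, the log2 fold changes were 0.70 for Rbp2, 0.52 for Isx, -3.55 for Bco1 and -0.89 for Lrat, and each still passed (limma adjusted p = 0.00337, 0.00092, 4.32e-05 and 0.00054). On that scale Rara (-0.28, adjusted p = 0.00853) and Rxra (-0.18, adjusted p = 0.0311) also passed. The same scale moved the median of all tested rows to -0.22, near the values of Rara and Rxra. Of 11870 tested rows it called 664 higher and 5850 lower in HET. The 9 genes include Cdx1 and Cdx2, which rose, and had a median log2 fold change of 0.09. The enterocyte list, with a median of 0.27, was not used for scaling. The part of epithelial content in these changes was not tested. Of 7 tested proximal genes 1 rose, Gata4 (61.0 ± 2.79 FPKM in HET and 42.8 ± 1.49 FPKM in WT), and of 5 tested distal genes 1 fell, Cubn. Of 7 genes of crypt stem and dividing cells 1 rose, Mki67, and 2 fell, Lgr5 and Olfm4, of which Lgr5 passed the filter through WT alone and so had to be lower in HET; both counts are to be read against the same 10.7% and 35.7%. The mean log2 level of the distal genes minus that of the proximal genes was -3.77, -3.13 and -2.90 for HET replicates 1, 2 and 3. For WT replicates 1, 2 and 3 it was -3.14, -3.32 and -3.05, so the groups overlapped.

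Within each genotype, the same library ranked lowest or highest for most of the 10 genes. Ranks do not measure distance, and some margins were narrow, as for Isx in WT replicates 2 and 3 (38.6 and 37.7 FPKM). HET replicate 3 was the lowest HET library for 9 of the 10 genes, against 45.9% of all tested rows, and WT replicate 2 was the highest WT library for 8 of 10, against 37.6%. Bco1 was the exception in HET, where replicate 1 was lowest. HET replicate 3 also had the highest distal minus proximal value of its genotype and WT replicate 2 the lowest of its own. The summed FPKM of HET replicate 3 (469968) and its median-ratio scaling factor (0.933) were the lowest of any library. WT replicate 2 had the lowest summed FPKM of its genotype (493950). The parts of position and of library scale in these levels were not tested.

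The 5 tested genes whose log2 levels followed Rbp2 most closely over the 6 libraries were Psmd11, a proteasome subunit (Pearson r = 0.996), Lrig3, Erg28, Abhd6, a monoacylglycerol hydrolase, and Bhlhe40, a transcription factor (r of 0.993 to 0.994). A value over 0.95 was reached by 265 of 11860 genes. The 6 points share 2 genotypes, so this likeness includes the genotype difference and was given no test. Psmd11 was at 24.2, 24.5 and 23.4 FPKM in HET and at 20.9, 21.3 and 19.998 FPKM in WT (log2 fold change 0.20, beside 0.82 for Rbp2).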

How the data were processed

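Polyadenylated RNA of mouse intestine was captured on oligo(dT) beads and made into libraries with a SMARTER mRNA kit, per the labels' protocols. The values are FPKM as the authors deposited them, with 1 column per library. The submitters' processing notes name the build GRCm39. Aligner, counting tool, annotation and use of strand were not stated by the labels or file headers read here. In GENCODE M21, other annotated genes overlap Rbp2 (Gm37113), Bco1 (Gm20694) and Rara (Gm22061) on the same strand, and Lrat (Rbm46os), Retsat (Gm45053) and Aldh1a1 (C730002L08Rik, Gm6684) on the opposite strand. How fragments were split between them is not known here, so the levels of these 6 members are uncertain to that extent. FPKM is relative to the library total, so abundant genes shift all others.

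FPKM values had 1 added and were log2-transformed, rows reaching 1 FPKM in 3 or more libraries were kept, and genotypes were compared by limma 3.58.1 (R 4.3.3; trended eBayes, no covariate) with Benjamini-Hochberg adjustment over all rows kept. The script was tested on simulated data. Single genes were also compared with exact permutation tests in SciPy 1.17.1. Depth was estimated from the pile-up of the lowest FPKM times longest transcript length (GENCODE M21), read as 1 fragment, a rough measure. No 2 libraries held identical values. The labels give no batch.

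The 10 genes and the lists were chosen with earlier results of these data known. Named were the 10 genes, Rnf111, up to 4 called genes in each direction and up to 3 abundant genes that did not pass from each list, and the 5 genes nearest to Rbp2; 1 gene that the rule names is not reported here. Alternatives were pseudocounts of 0.1 and 0.01, no filter, a mean FPKM of at least 5, 3 scalings, a replicate block, eBayes without trend and leaving out each library, with the tested rows kept. Scaling to the epithelial list was added after seeing the data.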

Additional observations from a re-analysis of the deposited data

How the results depend on the processing

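The log2 fold changes of Rbp2, Bco1, Isx and Lrat kept their direction and their call under every alternative run in which the gene was tested; Lrat and Rnf111 fall below a mean FPKM of 5. Over the alternatives they spanned 0.70 to 0.97 for Rbp2 (limma adjusted p = 0.000777 to 0.0142), -4.68 to -3.21 for Bco1 (2.42e-05 to 0.000959), 0.52 to 0.77 for Isx (0.000239 to 0.00459) and -0.995 to -0.58 for Lrat (0.00054 to 0.00702). The balance of all calls moved with the scaling. As deposited, 76.9% of 5504 called rows were lower in HET, against 66.9% with a common sum, 52.1% with median-ratio scaling, 42.4% with quantile normalization and 89.8% after scaling to the epithelial list. The median of all tested rows was -0.12 as deposited, 0.00 with median-ratio scaling, 0.04 with quantile normalization and -0.22 after scaling to the epithelial list.

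With a mean FPKM of at least 5, 2797 of 7341 tested rows were called, and 1 of the 10 genes and 9 of the wider genes were lower, with fewer rows tested. Of the wider genes, 6 were higher and 18 lower as deposited. With median-ratio scaling 9 were higher and 13 lower, and with quantile normalization 9 higher and 11 lower. Scaling to the epithelial list made 4 of the 10 genes lower, where 5850 of all 11870 tested rows were lower on that scale. The cause was not tested. Leaving out each library gave 3952 to 5676 calls in all, 2 to 3 of the 10 genes higher and 2 to 3 lower, and 4 to 11 wider genes higher and 16 to 21 lower, the count of 11 without HET replicate 3.

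Signs turned, always short of the threshold except where given, as follows. Aldh1a1 was at 0.026 with a common sum and 0.111 with median-ratio scaling. Rxra was at 0.071 with median-ratio scaling and 0.008 with quantile normalization, Cd36 at 0.062 and 0.007, and Rxrb at 0.057 and 0.036. Rnf111 was at 0.02 with quantile normalization. After scaling to the epithelial list Retsat was at -0.084, Dhrs3 at -0.067 and Rbp7 at -0.082, and Rnf111 passed at -0.27 (adjusted p = 0.0105). Leaving out each library gave -0.027 to 0.141 for Retsat, -0.04 to 0.152 for Dhrs3, -0.15 to 0.188 for Aldh1a1, -0.234 to 0.211 for Cd36 (called at the upper end), -0.058 to 0.137 for Rbp7 and -0.019 to 0.332 for Adh5 (called at the upper end). Rdh7 passed with median-ratio scaling (0.52, adjusted p = 0.0356).

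The labels give replicate numbers to both genotypes but do not say that they pair libraries. Deviations from the genotype means correlated at -0.03, 0.13 and 0.32 for numbers 1 to 3. HET replicates 2 and 3 each correlated best with the WT library of the same number, and HET replicate 1 with WT replicate 2 (0.25). With this mixed pattern and no pairing in the labels, the numbers were not taken as pairs. With the replicate block 1167 rows were called higher and 3915 lower, and Rdh7 passed (log2 fold change 0.38, adjusted p = 0.0185). The block changed no other call among the 10 genes. Depth limits Bco1 in HET to about 27 to 40 fragments per library.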
